A study of Mus musculus with 2 samples.

Results

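MHC class II molecules are the cell-surface receptors that show peptides from endocytosed material to CD4+ T cells, and 10 genes that build, load or switch on these molecules in the mouse were followed here: H2-Aa, H2-Ab1, H2-Eb1, H2-DMa, H2-DMb1, H2-DMb2, H2-Oa, H2-Ob, Cd74 and Ciita. The genes were chosen by name, for their role. All 10 were listed in both expression tables, among 19219 genes that the tables share. They were measured by single-cell RNA-seq of liver non-parenchymal cells (NPCs), the cells left after low-speed spins remove most hepatocytes. The normal library held cells of 1 control C57BL/6 male given olive oil, and the fibrotic library those of 1 male of the same strain given CCl4, a toxin that injures hepatocytes and leads to scarring. Injections were intraperitoneal, 2 per week for 6 weeks, in mice 8 weeks old, so a difference between libraries is a difference between 2 animals as well as between treatments.

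Each class II molecule pairs an α with a β chain. H2-Aa and H2-Ab1 encode the chains of I-A, and H2-Eb1 encodes the β chain of I-E, whose α chain C57BL/6 mice lack, so that H2-Eb1 RNA in this strain has no partner at the cell surface. Cd74 encodes the invariant chain, which guides new molecules to endosomes and blocks their groove. H2-DMa with H2-DMb1 or H2-DMb2 forms H2-DM, which swaps the remaining Cd74 fragment for antigen peptides, and H2-Oa with H2-Ob forms H2-O, an inhibitor of H2-DM that is typical of B cells. Ciita encodes the transactivator on which transcription of these genes depends. Dendritic cells (DCs) and B cells make class II molecules at all times, macrophages make them more variably and in response to interferon-γ, and liver sinusoidal endothelial cells (LSECs) have been described as able to present antigen.

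In the mouse genome (GRCm38), 8 of the 10 protein-coding genes lie within 0.224 Mb of chromosome 17, from H2-Oa at chr17:34092340-34095234 through H2-DMa, H2-DMb2, H2-DMb1, H2-Ob and H2-Ab1 to H2-Aa on the minus strand and H2-Eb1 at chr17:34305867-34316674. Class II promoters are known for a shared arrangement, an X box read by the RFX complex followed by a Y box read by NF-Y, onto which the Ciita protein docks. RefSeq promoter windows (GRCm38.p6) were given for 7 members. The 250 bases before each RefSeq start were searched on both strands for CNNATGATG, a stretch of X-box-like letters, for CCAAT, the Y-box core, and for TGACGTCA, the cAMP response element, and the letters were chosen after the windows had been seen. CNNATGATG was in the windows of H2-Eb1, H2-DMb1, H2-DMb2 and H2-Ob, beginning 87, 90, 119 and 83 bases before the start, against 2.31% of 32851 promoter windows of the same length. In H2-DMb1 these letters and CCAAT lie within 119 bases that the GENCODE annotation gives as untranslated sequence of the gene. The H2-DMb2 window and those of H2-DMa lie inside the longer GENCODE genes, so for these genes upstream of a start holds by RefSeq alone. In H2-Oa the last base of CCAAT also lies in annotated untranslated sequence. CCAAT was in a window of all 7 members, against 33.8% of all windows, and in those 4 genes it began 26 to 29 bases after the start of the X-box-like letters, with no overlap. TGACGTCA was in H2-Aa only, beginning 74 bases before the start, against 1.55% of windows, and CCAAT began 48 bases before the start there. A match describes these letters and does not show a bound site. Nor does a window without CNNATGATG show that an X box is absent. Shown here, to compare this spacing with a window that lacks the X-box-like letters, are the classical genes H2-Aa (chr17:34287824-34288073, minus strand, without them) and H2-Eb1 (chr17:34305617-34305866, plus strand) and the accessory genes H2-DMb2 (chr17:34144999-34145235, plus strand) and H2-Ob (chr17:34238655-34238902, plus strand), 5′ to 3′ and ending before any annotated untranslated base. Capitals mark the searched letters, with CCAAT read as ATTGG where it lies on the other strand.
H2-Aa: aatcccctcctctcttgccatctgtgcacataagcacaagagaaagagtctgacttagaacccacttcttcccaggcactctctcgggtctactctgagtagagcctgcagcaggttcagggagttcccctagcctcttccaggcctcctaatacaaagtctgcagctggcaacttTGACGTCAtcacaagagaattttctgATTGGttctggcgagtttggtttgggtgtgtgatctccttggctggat
H2-Eb1: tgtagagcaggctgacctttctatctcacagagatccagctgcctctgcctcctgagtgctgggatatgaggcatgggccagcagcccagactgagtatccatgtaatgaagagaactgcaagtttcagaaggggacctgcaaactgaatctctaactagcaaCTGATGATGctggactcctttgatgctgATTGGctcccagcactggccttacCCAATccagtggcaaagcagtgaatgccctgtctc
H2-DMb2: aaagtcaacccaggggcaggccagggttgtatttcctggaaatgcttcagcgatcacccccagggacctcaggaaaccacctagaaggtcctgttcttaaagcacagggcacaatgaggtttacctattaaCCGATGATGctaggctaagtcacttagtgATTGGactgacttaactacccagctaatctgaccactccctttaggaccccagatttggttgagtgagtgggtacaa
H2-Ob: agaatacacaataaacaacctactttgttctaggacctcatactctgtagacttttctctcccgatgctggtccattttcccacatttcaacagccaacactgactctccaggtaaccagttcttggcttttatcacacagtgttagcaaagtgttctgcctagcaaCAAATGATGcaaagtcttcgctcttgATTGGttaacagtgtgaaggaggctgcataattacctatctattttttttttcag

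The normal library held 8130 cells and 44062632 UMIs (median 4144.5 per cell, range 898 to 75847), of which 7471 cells were kept, and the fibrotic library 6437 cells and 53288463 UMIs (median 5619, range 815 to 116430), of which 6132 were kept. A UMI is a molecular tag that counts 1 captured RNA molecule. The libraries shared 15 barcodes. Cell classes were rebuilt here by clustering each library without the 10 genes and naming clusters from marker lists, so class names carry the ending "-like" and may differ from those of the study. Levels are UMIs of a gene per 10000 UMIs of the class, each with a 95% interval that covers counting error only, and a gene is compared across classes and not with another gene, since 3′ capture differs between genes. With 1 library per condition no difference between conditions could be tested, and each ratio compares these 2 libraries. A gene was called past the fold when it reached 1 per 10000 in a library, its ratio was at least 2 times in either direction and the interval of the ratio left out 1.

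The level of the classical chain genes, H2-Aa, H2-Ab1 and H2-Eb1 summed, differed most between cell classes. It was 231 (228 to 234, 97 cells) in cDC1-like cells of the normal library, conventional DCs marked by Xcr1 and Clec9a, 192 (188 to 195, 91 cells) in cDC2-like cells, marked by Cd209a, and 147 (144 to 151, 63 cells) in migratory-DC-like cells, marked by Ccr7. B-cell-like cells stood at 75.4 (74.1 to 76.8, 562 cells) and pDC-like cells, the plasmacytoid DCs, at 45.3 (44.0 to 46.7, 143 cells). Kupffer-cell-like cells, the resident liver macrophages, stood at 36.8 (35.9 to 37.7, 284 cells) and overlapped Ly6c-monocyte-like cells at 35.4 (34.0 to 36.8, 119 cells), while the neighbours above them in this order did not overlap. The overlap rests on this clustering, since the Ly6c-monocyte-like level was 20.1 to 22.0 under others. An unnamed group led by Cx3cr1 and Cd207, with the complement genes C1qa and C1qb among its leading genes, stood at 135 (132 to 139, 69 cells), between the migratory-DC-like and B-cell-like classes. Endothelial classes lay between 1.98 and 2.47, below T cells at 4.18 and NK cells at 3.71, mouse cells not known to make class II molecules, whose level is used here as the background.

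In the fibrotic library cDC2-like cells stood at 229.9 (226 to 234, 110 cells) and cDC1-like cells at 203 (199 to 206, 64 cells). These levels pool the UMIs of a class, and the median cDC2-like cell lay above the median cDC1-like cell in both libraries, at 253 against 238 in the normal and 240.0 against 198 in the fibrotic one. B-cell-like cells at 70.6 (69.0 to 72.3, 430 cells) overlapped Ly6c-monocyte-like cells at 68.4 (67.1 to 69.7, 194 cells), and pDC-like cells stood at 35.6 (34.6 to 36.7, 142 cells). The Ly6c-monocyte-like level was 42.4 with 30 components and 39.4 with the class II genes kept for clustering. Scar-associated-macrophage-like cells, a class marked by Trem2, Gpnmb and Spp1 that was named in this library only, stood at 8.76 (8.47 to 9.06, 203 cells), and Kupffer-cell-like cells at 8.37 (7.99 to 8.75, 220 cells). The typical cells of these macrophage classes were less alike than the pooled levels: the median scar-associated-macrophage-like cell held 1.81 and the median Kupffer-cell-like cell 4.29, and 8 of 203 scar-associated-macrophage-like cells (3.94%) held at least as many classical UMIs as all the others together. After thinning to 1000 UMIs per cell, 31.0% (24.7 to 37.9) of them kept a classical UMI, against 42.3% (35.7 to 49.1) of Kupffer-cell-like and 42.9% (38.3 to 47.5) of T/NK-like cells (before thinning 94.1%, 94.1% and 73.7%, at median depths of 17530, 10009.5 and 2851.5 UMIs, with 0, 0 and 2 cells left out). Not scaled for depth, the 203 scar-associated-macrophage-like cells held 3428 classical UMIs, where 464 T/NK-like cells held 986. Patrolling-monocyte-like cells stood at 12.5 (11.5 to 13.6, 122 cells), but 4 cells (3.28%) held at least as many UMIs as the rest, and the median cell was at 4.75, beside 4.32 in T/NK-like cells. Their level was 4.32 with all deposited cells, 7.54 with 30 components and 7.65 without the top 1% of cells. Endothelial classes lay between 2.20 and 2.95, again below T cells at 7.36 and NK cells at 6.19. No migratory-DC-like class was named in this library.

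**Figure D1:**
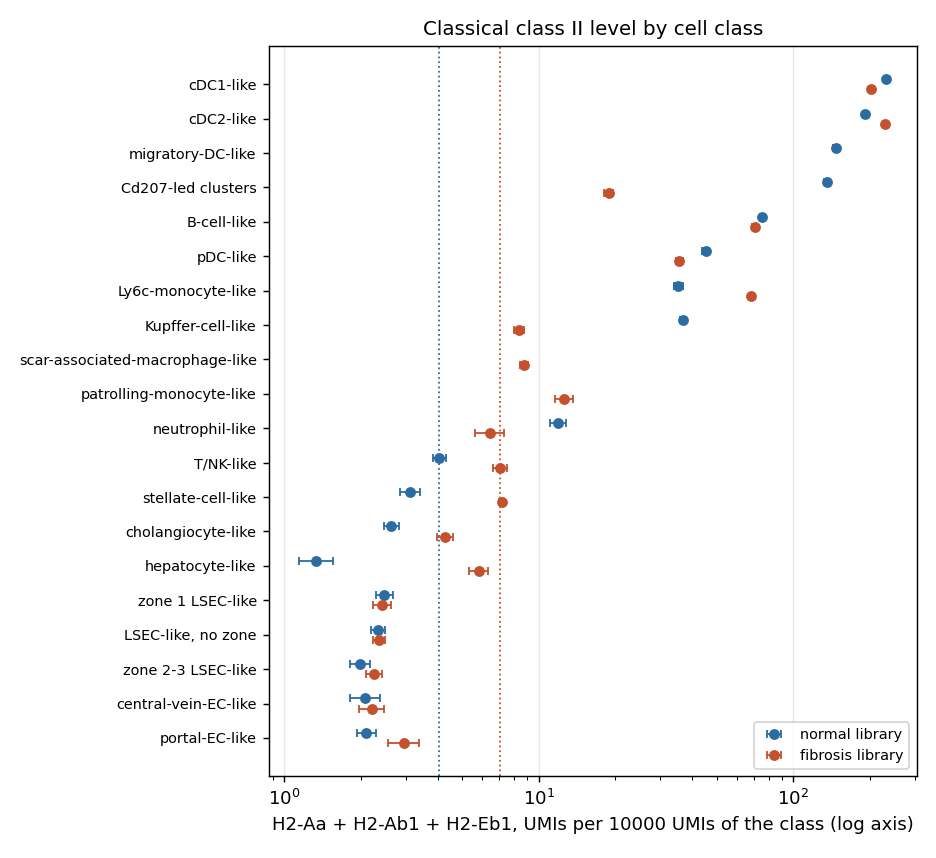
Summed level of H2-Aa, H2-Ab1 and H2-Eb1 in each cell class, in UMIs per 10000 UMIs of the class on a log axis, with 95% Poisson intervals (counting error only) for the normal and fibrotic library; dotted lines mark the T/NK level of each library (4.07 and 7.02). Kupffer-cell-like cells (36.8 and 8.37) and the Cd207-led clusters (135 and 18.8) lie far apart between the libraries, cDC and B-cell-like points lie close together, and the endothelial points lie left of the dotted line of their library.

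The I-A chains had like orders across the antigen-presenting classes. H2-Aa stood at 76.4 UMIs per 10000 in cDC1-like, 63.4 in cDC2-like and 28.9 in B-cell-like cells of the normal library, and at 71.0, 85.5 and 28.1 in the fibrotic library. H2-Ab1 stood at 86.7, 66.6 and 25.5 in the same normal classes and at 79.2, 81.0 and 25.4 in the fibrotic ones. H2-Eb1, the I-E chain without a partner in this strain, stood at 67.8, 61.6 and 21.0 and then at 52.4, 63.3 and 17.1. All 3 genes had their highest pooled level in cDC1-like cells of the normal and in cDC2-like cells of the fibrotic library, where cDC1-like and cDC2-like cells overlapped for H2-Ab1 (77.0 to 81.5 and 78.8 to 83.2). H2-Eb1 made up 20.2% and 21.7% of classical UMIs in pDC-like cells of the normal and fibrotic library, less than in cDC1-like (29.3% and 25.9%) or B-cell-like cells (27.9% and 24.3%).

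Cd74, at chr18:60803848-60812652, followed the classical genes. It stood at 170.4 (168 to 173) in cDC1-like, 154 in cDC2-like, 121 in migratory-DC-like and 89.0 in B-cell-like cells of the normal library, and at 126, 145 and 60.9 in the fibrotic cDC1-like, cDC2-like and B-cell-like cells. Cd74 UMIs per classical UMI were lower in the fibrotic library in these classes, 0.738 against 0.623 in cDC1-like, 0.804 against 0.629 in cDC2-like and 1.18 against 0.862 in B-cell-like cells, and also in T/NK-like cells, 0.762 against 0.643. This was not so in all classes: the value was 0.793 (0.762 to 0.825) in the normal and 0.918 (0.863 to 0.978) in the fibrotic Cd207-led clusters, without overlap, and 0.989 (0.803 to 1.22) and 1.41 (1.31 to 1.51) in mesothelial-like cells, while in Kupffer-cell-like cells the intervals of 0.833 (0.803 to 0.864) and 0.888 (0.831 to 0.949) overlapped. In normal plasma-cell-like cells the value was 3.46 (3.19 to 3.75), with Cd74 at 20.5, the classical sum at 5.91 and 2 UMIs of Ciita. Per 10000 UMIs without haemoglobin, immunoglobulin, mitochondrial and ribosomal protein genes, that sum was 11.1. Plasma cells are known to shut off Ciita and the classical genes as they arise from B cells.

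Ciita, at chr16:10480059-10528418, had its highest levels where the classical genes did. In the normal library it stood at 4.71 (4.29 to 5.16) in cDC1-like, 3.71 in cDC2-like, 2.72 in migratory-DC-like and 2.09 in B-cell-like cells, and in the fibrotic library at 3.64, 4.46 and 1.78 in cDC1-like, cDC2-like and B-cell-like cells. Kupffer-cell-like cells held 35 and 35 Ciita UMIs in the normal and fibrotic library, or 0.199 (0.139 to 0.277) and 0.154 (0.107 to 0.214) per 10000, so a difference was not detectable at this depth (ratio 0.773, 0.470 to 1.27). In sinusoidal endothelial cells Ciita stood at 0.0287 and 0.0278, from 26 and 30 UMIs.

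The H2-DM genes differed between DCs and B cells. H2-DMa, the α chain of H2-DM, stood at 10.6 and 7.03 in normal and fibrotic cDC1-like cells and at 3.84 and 2.34 in B-cell-like cells. H2-DMb1, a β chain, stood at 5.84 and 5.12 in normal cDC1-like and cDC2-like cells and at 1.34 in B-cell-like cells. H2-DMb2, the other β chain, had the opposite order, at 3.91 (3.60 to 4.23) in normal and 3.79 (3.42 to 4.19) in fibrotic B-cell-like cells against 0.722 and 0.623 in cDC1-like cells. As a share of H2-DMb1 and H2-DMb2 UMIs, H2-DMb2 made up 74.4% (71.3 to 77.4) in normal and 69.8% (65.8 to 73.7) in fibrotic B-cell-like cells. It made up 20.4% and 23.6% in cDC2-like, 11.01% and 11.7% in cDC1-like and 4.63% and 8.39% in Kupffer-cell-like cells. In pDC-like cells the share was 10.6% (6.27 to 16.4) in the normal and 24.8% (18.2 to 32.5) in the fibrotic library, so B-cell-like cells stood apart from all DC and macrophage classes. These genes are close paralogs and their counts are uncertain: 52 of 411 stretches of 90 bases in the last 500 bases of H2-DMb1 (12.7%) also occur in H2-DMb2, where 0 of 411 of H2-DMb2 occur in H2-DMb1.

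**Figure D2:**
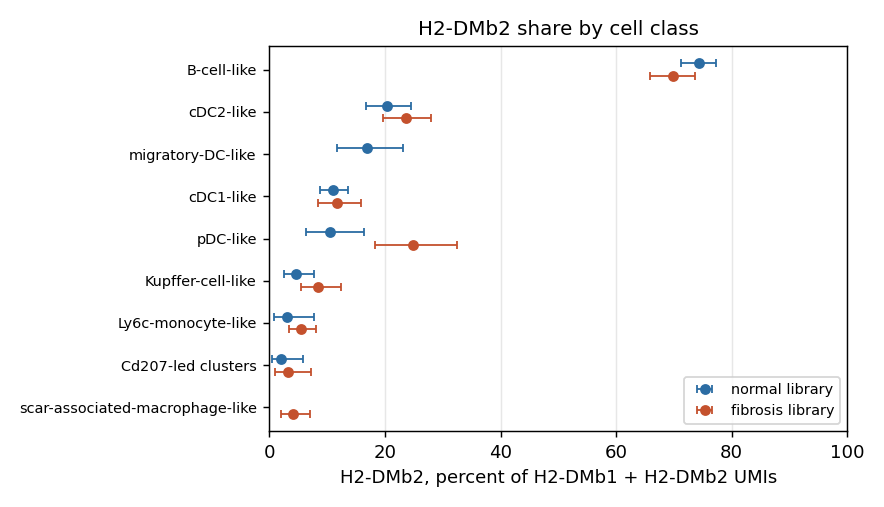
H2-DMb2 UMIs as a percent of H2-DMb1 and H2-DMb2 UMIs in each cell class, with 95% binomial intervals (counting error only) for the normal and fibrotic library. B-cell-like cells (74.4% and 69.8%) lie apart from the DC, monocyte and macrophage classes, which reach at most 24.8%.

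H2-Ob, the β chain of H2-O, was highest in B-cell-like cells, at 5.10 (4.76 to 5.47) and 4.97 (4.55 to 5.43) in the normal and fibrotic library, and stood at 1.91 and 2.04 in cDC1-like cells. Its partner H2-Oa was spread more evenly, at 1.96 (1.74 to 2.19) in B-cell-like, 1.83 (1.53 to 2.18) in cDC2-like and 1.75 (1.498 to 2.03) in cDC1-like cells of the normal library, whose intervals overlapped, and at 1.21 in pDC-like cells. pDC-like cells held H2-Oa with little H2-Ob, 0.0829 from 8 UMIs in the normal and 0.136 from 16 UMIs in the fibrotic library. Kupffer-cell-like cells held H2-Oa at 0.0513 and 0.0792 and H2-Ob at 0.0513 and 0.119, not above T/NK-like cells.

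**Figure D3:**
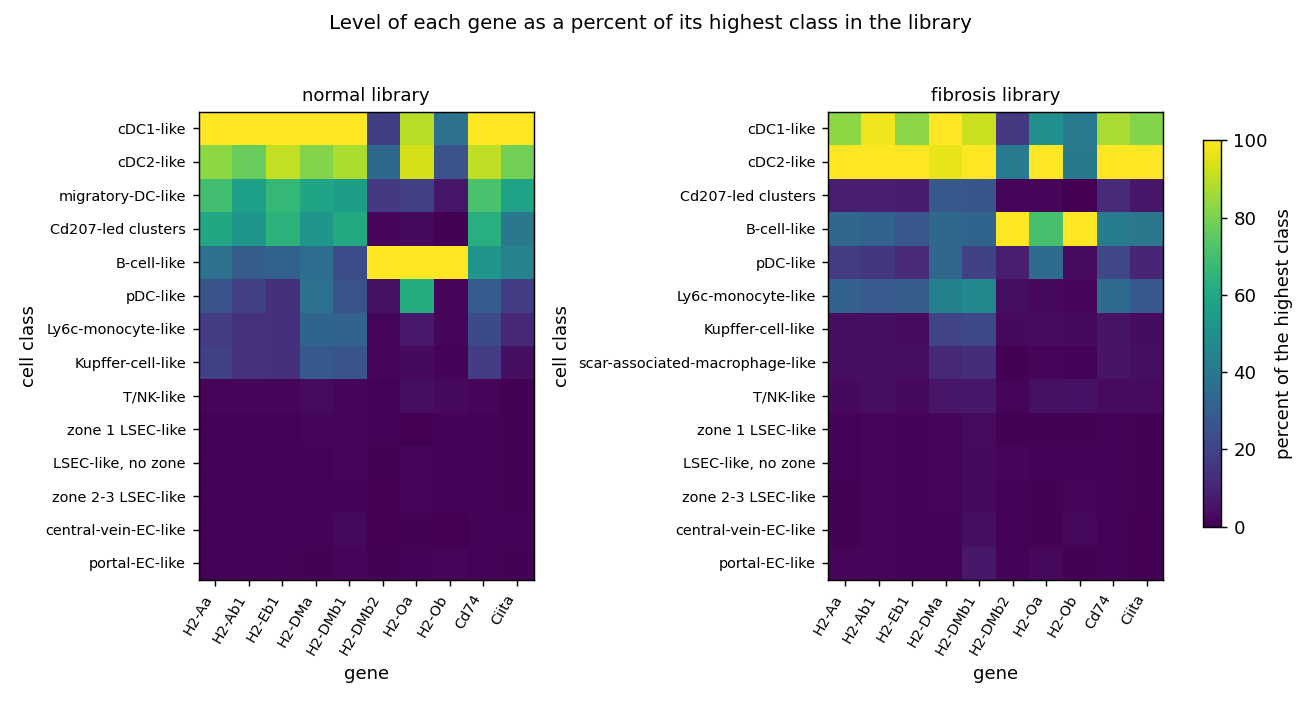
Level of each of the 10 genes in each class, as a percent of the class with the highest level of that gene in the same library (color scale, 0 to 100), in 1 panel per library. H2-DMb2 and H2-Ob are highest in B-cell-like cells of both libraries, H2-Oa is highest there in the normal library, and the endothelial classes are at the low end of the scale for the 10 genes.

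In Kupffer-cell-like cells the classical genes fell from 36.8 to 8.37 UMIs per 10000, 4.40 times lower in the fibrotic library (ratio 0.227, 0.216 to 0.239). H2-Aa went from 15.1 to 3.29, H2-Ab1 from 12.2 to 3.24, H2-Eb1 from 9.50 to 1.84 and Cd74 from 30.7 to 7.43. The peptide-exchange genes had ratios nearer to 1, H2-DMa 0.4999 (0.434 to 0.575), at the limit, and H2-DMb1, from 1.53 to 1.10, 0.724 (0.607 to 0.863), within it. Of the 6 members above 1 per 10000, 5 were past the fold downward and 0 upward, while 5.34% of 2058 genes in these cells were past it downward and 3.45% upward. The median log2 ratio was -1.98 over the members and 0.14 over all genes. H2-DMb2, H2-Oa, H2-Ob and Ciita were under 1 per 10000 in both libraries.

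The median Kupffer-cell-like cell held 25.9 classical UMIs per 10000 of its own UMIs in the normal library (quartiles 14.9 and 46.4) and 4.29 in the fibrotic library (quartiles 2.41 and 7.73), so the upper quartile in fibrosis lay below the lower quartile of the normal cells. The 2 normal Kupffer-cell-like clusters, 1 of them led by haemoglobin genes and of lower depth, stood at 36.4 and 37.8. After each cell was thinned to 1000 UMIs, 86.3% (81.7 to 90.05) of normal and 42.3% (35.7 to 49.1) of fibrotic Kupffer-cell-like cells kept a classical UMI, where 31.6% (28.6 to 34.8) and 42.9% (38.3 to 47.5) of T/NK-like cells did. Before thinning the shares were 99.6% and 94.1%, against 65.5% and 73.7% of T/NK-like cells, at median depths of 5994.5 and 10009.5 UMIs and of 3592 and 2851.5. Thinning left out 0 Kupffer-cell-like cells and 1 and 2 T/NK-like cells. After thinning, the fibrotic share was thus no higher than the background share. Thinning takes more UMIs from deeper cells, so this share alone does not place these cells at the background. Before it, 220 fibrotic Kupffer-cell-like cells held 1901 classical UMIs and 464 T/NK-like cells held 986. Over the T/NK level, the classical level was 9.05 times in the normal (8.52 to 9.61) and 1.19 times in the fibrotic library (1.10 to 1.29). In fibrotic Kupffer-cell-like cells H2-Ab1 (1.08, 0.955 to 1.22) and H2-Eb1 (1.09, 0.928 to 1.28) did not differ from the T/NK level beyond counting error, while H2-DMa (3.46 times) and H2-DMb1 (3.30 times) were above it.

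Depth and other markers moved with this difference. Per cell, where the deeper fibrotic cells count for more, the classical ratio was 0.379 and that of H2-DMb1 1.21. Scar-associated macrophage markers summed to 18.1 per 10000 in normal and 43.6 in fibrotic Kupffer-cell-like cells, with all 11 detected in each. The 12 cDC2 markers summed to 6.67 (8 detected, Mgl2, Ffar2, Ccr6 and Cd209d at 0) and 14.2 (11 detected, Ffar2 at 0), and the 13 cDC1 markers to 10.8 (10 detected, Xcr1, Itgae and Gcsam at 0) and 13.2 (11 detected, Snx22 and Gcsam at 0). The 13 B-cell markers summed to 3.55 and 3.91 and the 13 Kupffer-cell markers to 228 and 266, all detected in each. Without cells that held a UMI of Cd79a, Cd79b, Ms4a1, Cd209a, Xcr1 or Clec9a the ratio was 0.165, and with the T/NK level subtracted it was 0.0411. The part of depth and of the scar-associated macrophage markers was not tested.

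**Figure D4:**
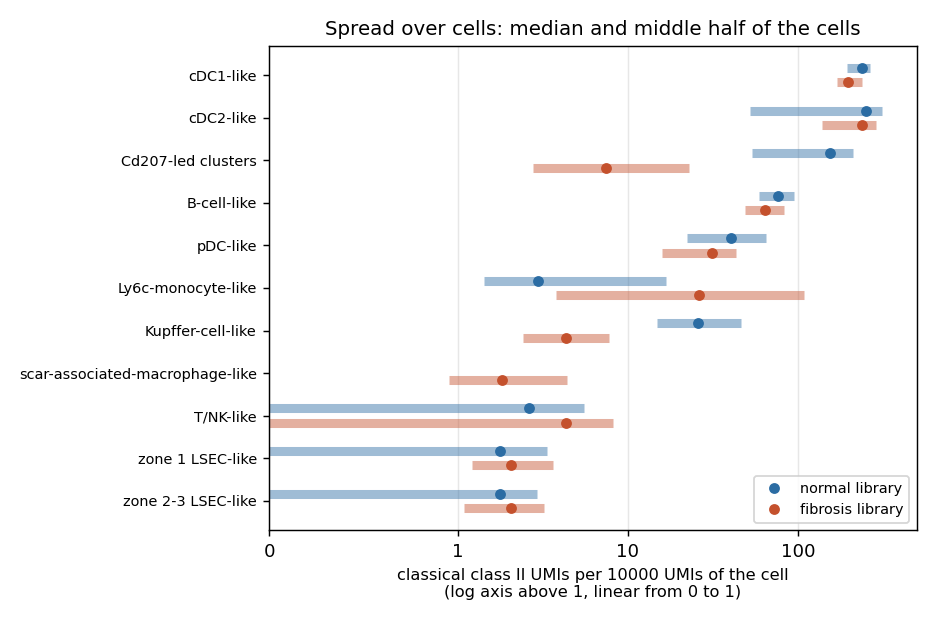
Classical class II UMIs per 10000 UMIs of a cell (log axis above 1, linear from 0 to 1), with the median (point) and the quartiles (bar ends) over the cells of a class in the normal and fibrotic library; cells are not replicates. The Kupffer-cell-like bars do not overlap (medians 25.9 and 4.29), nor do those of the Cd207-led clusters (medians 154 and 7.39), while the cDC1-like and B-cell-like bars do.

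The Cd207-led clusters showed a larger difference. One such cluster was found in each library, 69 cells in the normal and 70 in the fibrotic one, and they were paired after their leading genes had been seen, since Cd207, Cx3cr1, Mmp13, Ms4a7 and C1qb stood among the top 10 genes of both. The classical sum was 135 (132 to 139) in the normal and 18.8 (18.003 to 19.6) in the fibrotic cluster, 7.196 times lower (ratio 0.139, 0.132 to 0.146). H2-Aa went from 45.5 to 7.29, H2-Eb1 from 43.8 to 4.78 and Cd74 from 107 to 17.3. Ciita went from 1.89 (77 UMIs) to 0.280 (31 UMIs). Of 7 members above 1 per 10000, 7 were past the fold downward, where 10.7% of 2175 genes were past it downward and 10.0% upward, and the median log2 ratio was -2.64 over the members and 0.05 over all genes. Ciita is 1 of these 7 and reached 1 per 10000 in the normal library only, where it is high. Median depth was 5727 and 14882 UMIs, Kupffer-cell markers summed to 64.0 and 105 and scar-associated macrophage markers to 16.96 and 122. Per cell, the ratio was 0.373 for the classical sum, 0.951 for H2-DMa and 1.04 for H2-DMb1. A change within 1 kind of cell and a difference between 2 kinds cannot be told apart here, and the part of depth and of the other markers was not tested.

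In Ly6c-monocyte-like cells the ratio was above 1. The classical sum stood at 35.4 and 68.4 (ratio 1.93, 1.85 to 2.02; per cell 2.80), just short of the limit, with H2-Aa at 13.7 and 26.4 and H2-Eb1 at 9.44 and 18.8. Ciita, at 0.516 (35 UMIs) and 1.27 (203 UMIs), was the 1 of 7 members above 1 per 10000 that passed it (2.45, 1.71 to 3.62), where 14.3% of 2281 genes were past it upward and 13.6% downward. Ciita reached 1 per 10000 in the fibrotic library only, so this call depends on the library where it is high. The median cell held 2.97 classical UMIs per 10000 (quartiles 1.42 and 16.7) in the normal and 26.2 (3.80 and 108) in the fibrotic library, so the spread over cells was wide in both. The normal class was a cluster led by Ace and F13a1 and the fibrotic class a cluster led by Hbb-bs and Ccr2. The 12 markers of the class summed to 112 and 28.0, scar-associated macrophage markers to 17.1 and 57.6 and Kupffer-cell markers to 6.58 and 27.9. The fibrotic class thus held less of its own markers than of the scar-associated macrophage markers, and fibrotic cDC2-like cells held more of them (33.8), so its markers go against its name. A change within 1 kind of cell and a difference between 2 kinds cannot be told apart here. The normal level rested on the clustering, at 20.1 to 22.0 under 4 other clusterings, and the fibrotic level was 42.4 with 30 components and 39.4 with the class II genes kept.

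Conventional DCs, cDC1-like and cDC2-like cells pooled, held 215 (212 to 217, 188 cells) classical UMIs per 10000 in the normal and 217 (214 to 219, 174 cells) in the fibrotic library, a ratio of 1.01 (0.994 to 1.03). The ratio was 0.878 (0.859 to 0.898) in cDC1-like and 1.20 (1.17 to 1.23) in cDC2-like cells. The median cDC2-like cell did not share that direction, at 253 (quartiles 52.2 and 312) in the normal and 240.0 (138 and 289) in the fibrotic library, and at Leiden resolution 1.5 the pooled levels were 231 and 221. Markers of other cell types differed too. In cDC2-like cells the 15 T-cell markers summed to 7.62 (15 detected) and 1.17 per 10000 (13 detected, Cd3g and Cxcr6 at 0), the 13 Kupffer-cell markers to 4.43 and 15.8 and the 11 scar-associated macrophage markers to 15.8 and 21.8. Ly6c-monocyte markers stood at 45.7 and 33.8 there, beside 28.6 and 34.5 for the cDC2 markers, so the normal cells held more of that list than of their own. In cDC1-like cells the Kupffer-cell markers summed to 2.89 and 18.1, the 10 migratory-DC markers to 2.57 (8 detected, Cacnb3 and Nudt17 at 0) and 9.34 (10 detected), and the cDC1 markers to 113 and 96.6. The part of these markers in the ratios was not tested. Of 9 and 10 members above 1 per 10000, 0 were past the fold in either subset, where 8.03% of genes in cDC1-like and 7.87% in cDC2-like cells were past it upward and 5.88% and 7.36% downward. In cDC1-like cells Cd74 (0.742, 0.722 to 0.762) and H2-DMa (0.662, 0.589 to 0.742) had lower ratios than the classical sum. In cDC2-like cells the H2-O chains H2-Oa (1.43, 1.13 to 1.82) and H2-Ob (1.53, 1.16 to 2.03) had ratios above 1. The fibrotic cDC1-like cluster was led by Ifnb1, an interferon gene, and Xcr1. The normal cDC2-like cluster was led by Mpo, Elane and Prtn3, granule genes of myeloid precursors, with UMIs in 3, 2 and 6 of its 91 cells, and without all cells holding such a UMI the pooled ratio was 0.980.

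In B-cell-like cells the classical ratio was 0.936 (0.909 to 0.964). H2-Aa (0.974, 0.929 to 1.02), H2-Ab1 (0.995, 0.946 to 1.05), H2-DMb2 (0.970, 0.852 to 1.10), H2-Oa (0.948, 0.787 to 1.14), H2-Ob (0.974, 0.870 to 1.09), Ciita (0.850, 0.705 to 1.02) and H2-DMb1 (1.22, 0.989 to 1.502), the 1 member with a ratio above 1, had intervals that held 1. H2-Eb1 (0.814, 0.768 to 0.863), H2-DMa (0.609, 0.522 to 0.709) and Cd74 (0.684, 0.664 to 0.705) had ratios below 1. Of the 10 members, 0 were past the fold, where 9.59% of 2462 genes were past it downward and 11.9% upward. In the same cells the 13 B-cell markers summed to 160.4 and 129 per 10000, Kupffer-cell markers to 6.91 and 27.2, LSEC markers to 17.4 and 31.8 and scar-associated macrophage markers to 3.52 (9 of 11 detected, Gpnmb and Mmp12 at 0) and 19.4 (11 detected), and their part in the ratios was not tested. In pDC-like cells the classical ratio was 0.787 (0.754 to 0.821), with Cd74 at 49.6 and 30.8 and Ciita at 0.860 and 0.478. Of the 142 fibrotic pDC-like cells, 47 formed a deeper cluster with Fbln2, Fmo2 and Edn1, the gene of the endothelial peptide endothelin-1, among its leading genes, at 32.4 classical and 27.5 Cd74 UMIs per 10000. The other 95 stood at 40.0 and 35.3. A normal cluster led in part by these 3 genes was set aside as mixed, and the part of this make-up in the ratio was not tested. Of 7 members above 1 per 10000 there, 0 were past the fold, where 8.66% of 2518 genes were past it downward and 16.5% upward.

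**Figure D5:**
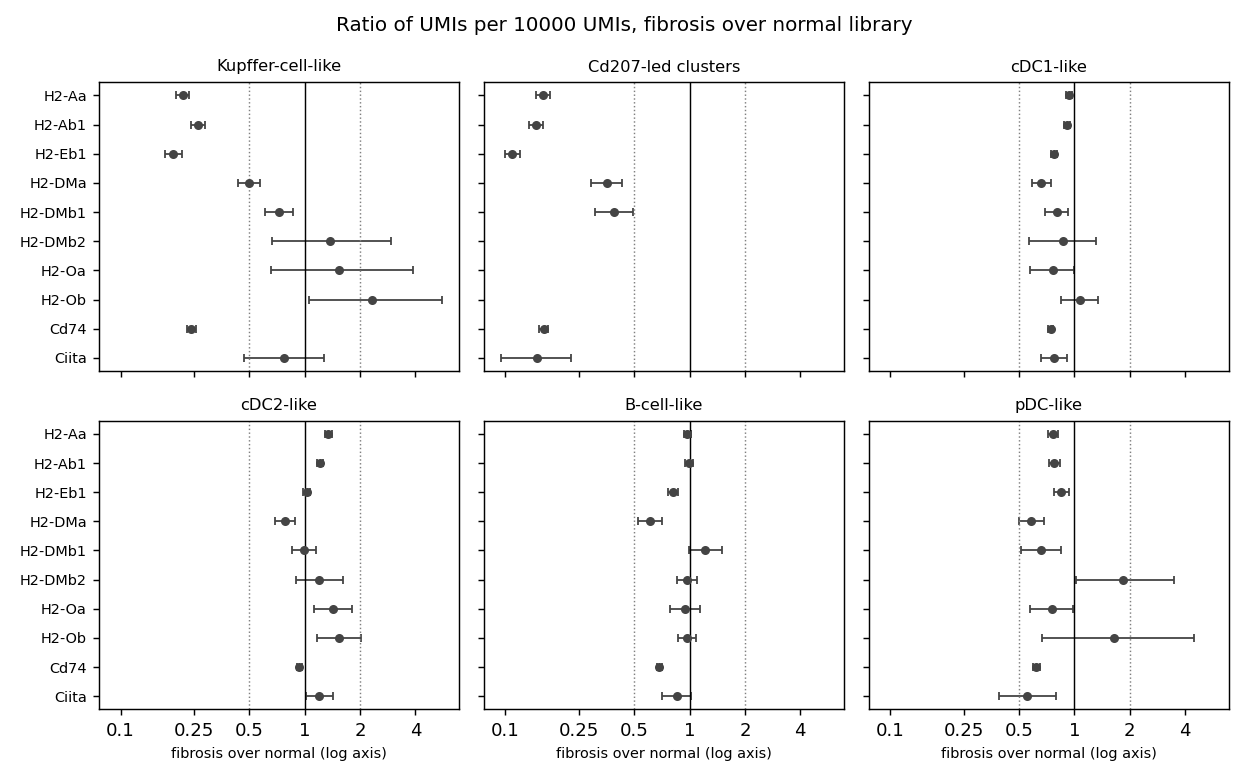
Ratio of the level in the fibrotic to that in the normal library for each gene in 6 classes (panels), on a log axis with 95% intervals (counting error only); dotted lines mark the limits of 0.5 and 2. In Kupffer-cell-like cells and the Cd207-led clusters the classical genes and Cd74 (0.242 and 0.161) lie below 0.5, while in B-cell-like cells they lie between the limits; genes with too few UMIs are not drawn in the Cd207-led panel.

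Sinusoidal endothelial cells, the zone 1, zone 2-3 and unzoned LSEC-like classes pooled, held 2.28 (2.18 to 2.38, 1615 cells) classical UMIs per 10000 in the normal and 2.34 (2.25 to 2.43, 1240 cells) in the fibrotic library, a ratio of 1.03 (0.970 to 1.09). The level was 0.559 times the T/NK level in the normal library (0.521 to 0.600) and 0.333 times in the fibrotic one (0.310 to 0.359). With 10 components in the clustering, 0 of 10 members exceeded the T/NK level beyond counting error in any endothelial class of either library. Per cell, the level was 0.883 and 0.958 times that of T/NK-like cells. After thinning to 1000 UMIs per cell, 21.4% (19.4 to 23.5) and 22.5% (20.2 to 24.9) of sinusoidal cells kept a classical UMI, below T/NK-like cells in both libraries (before thinning 67.8% and 85.3%, at median depths of 5288 and 7821 UMIs, with 0 cells left out). These shares lie below that background and are not read as expression. Hepatocyte-like cells gave another background, 1.34 and 5.80 per 10000, over which the sinusoidal level was 1.70 times in the normal and 0.404 times in the fibrotic library. This background was not firm: 2 of 147 fibrotic hepatocyte-like cells held at least as many classical UMIs as all the others together, and the level there was 2.50 without the top 1% of cells and 2.98 with 30 components, while the normal level was 2.43 at Leiden resolution 1.5 and 5.57 with 30 components. Per cell the sinusoidal ratio between libraries was 1.59, with the deeper cells of the fibrotic library.

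In the normal library zone 1 LSEC-like cells, nearest the portal inflow, stood at 2.47 (2.28 to 2.67), zone 2-3 cells at 1.98 (1.81 to 2.16), portal endothelial cells at 2.10 (1.93 to 2.29) and central vein endothelial cells at 2.08 (1.81 to 2.38). In the fibrotic library they stood at 2.42 (2.22 to 2.63), 2.26 (2.09 to 2.43), 2.95 (2.55 to 3.40) and 2.20 (1.96 to 2.47). Zone 1 and zone 2-3 cells did not overlap in the normal library and did in the fibrotic one. With 30 components in the clustering, central vein endothelial cells of the normal library stood at 11.2 and portal endothelial cells of the fibrotic library at 6.31. Over all sinusoidal cells 2 members were above 1 per 10000 and 0 were past the fold, where 3.71% of 2347 genes were past it upward and 4.52% downward. The same counts held in zone 1 (background 4.62% upward and 4.79% downward) and in zone 2-3 cells (4.41% and 4.96%). H2-Ab1 made up 45.7% of classical UMIs in fibrotic sinusoidal cells and 42.8% in T/NK-like cells, against 37.0% in conventional DCs. In the normal library these shares lay close together, at 37.6%, 37.3% and 36.5%. B-cell markers summed to 1.03 and 1.06 per 10000 in sinusoidal cells and cDC1 markers to 3.59 and 4.66, with all 13 of each list detected, and Kupffer-cell markers to 8.70 and 13.7, and their part in these low levels was not tested.

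T/NK-like cells themselves stood at 4.07 (3.85 to 4.30, 890 cells) and 7.02 (6.59 to 7.47, 464 cells), a ratio of 1.72 (1.58 to 1.87), with 0 of 4 members above 1 per 10000 past the fold, where 9.23% of 2459 genes were past it upward and 8.58% downward. The top cell held 197 of the 1287 normal and 172 of the 986 fibrotic classical UMIs of this class. The median T/NK-like cell stood at 2.63 and 4.32, below the pooled levels that serve as the background. Shares of class II RNA and shares of cells differed. Conventional DCs were 2.52% of normal and 2.84% of fibrotic cells and held 31.9% (31.6 to 32.1) and 30.4% (30.1 to 30.7) of the 112628 and 88639 classical UMIs. B-cell-like cells were 7.52% and 7.01% of cells and held 10.6% and 8.03%. Sinusoidal endothelial cells were 21.6% and 20.2% of cells and held 1.83% and 2.85%. Kupffer-cell-like cells held 5.74% and 2.14%, at 3.80% and 3.59% of cells, and Ly6c-monocyte-like cells 2.13% and 12.4%, at 1.59% and 3.16% of cells. Such shares also depend on which cells the isolation yielded, which was not tested.

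Other genes of the pathway were taken from 7 lists of 29 genes, of which Ifi30 and H2-Ea-ps are not analysed here. In Kupffer-cell-like cells 1 gene was past the fold upward, 0 downward, 15 were under 1 per 10000 in both libraries and 11 were within the fold, where 3.45% of 2058 genes were past it upward and 5.34% downward. The 1 gene was Ctsd, the lysosomal protease cathepsin D, at 15.5 and 46.3. Ctss, cathepsin S, which trims Cd74, stood at 24.0 and 23.6 (0.981, 0.942 to 1.02), and March1, a ubiquitin ligase that removes class II molecules from the surface, at 1.79 and 2.13. Of the interferon-γ signalling genes, Irf1 stood at 1.71 and 1.35 (0.785, 0.668 to 0.924) and the receptor chain Ifngr1 at 4.24 and 4.62, both within the fold. All 7 listed regulators of class II transcription, the RFX and NF-Y subunits and Creb1, were under 1 per 10000 there, with Rfx5 at 0.177 and 0.211. In the Cd207-led clusters Cd86, a costimulatory ligand, was past the fold downward, at 2.14 and 0.577, and 4 lysosomal enzymes were past it upward, where 10.7% of 2175 genes were past it downward and 10.0% upward.

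Lysosomal enzymes were past the fold upward in each of the 11 classes compared, T/NK-like cells and endothelium included, and none was past it downward. Of the 5 analysed, 5 passed in B-cell-like (where 11.9% of all genes did), 5 in Ly6c-monocyte-like (14.3%) and 5 in T/NK-like cells (9.23%). It was 4 in cDC1-like (8.03%), 4 in cDC2-like (7.87%) and 2 in pDC-like cells (16.5%). Sinusoidal, zone 1 and zone 2-3 endothelium had 2, 2 and 2 (3.71%, 4.62% and 4.41%), and Kupffer-cell-like cells 1 (3.45%). Ctsb, cathepsin B, went from 3.95 to 23.0 in T/NK-like, from 3.20 to 25.7 in B-cell-like and from 12.1 to 92.3 in Ly6c-monocyte-like cells, whose normal and fibrotic clusters may be different kinds of cells. Scar-associated-macrophage-like cells held it at 147, and the part of free RNA in the other classes was not tested. Ifng, which encodes interferon-γ, was past the fold downward in T/NK-like cells, at 2.42 and 0.598 (0.247, 0.195 to 0.310). In the endothelium Irf1, a target of interferon signalling, was past the fold upward in zone 1 (2.44 and 5.34) and zone 2-3 LSEC-like cells (1.79 and 4.05) and just short of it over all sinusoidal cells (ratio 1.97). In pDC-like cells Ifngr1 (0.487 and 1.26) and the kinase gene Jak1 (1.71 and 4.61) were past it upward, and in B-cell-like cells the other receptor chain, Ifngr2 (0.589 and 1.19). Cd4 and Lag3, receptors that bind class II molecules, were highest in pDC-like cells, with Cd4 at 5.45 and 3.18, against 1.25 and 1.07 in T cells, and Lag3 at 3.58 and 2.25. H2-Eb2, a further β-chain gene of the region, was highest in B-cell-like cells at 0.405 and 0.595.

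Genes with a pattern like that of the classical sum were ranked among 4626 genes, over 20 normal and 21 fibrotic classes, by Pearson r of log2 levels, taking the lower value of the 2 libraries. Among the other members r was 0.981 for Cd74, 0.968 for H2-DMa, 0.957 for H2-DMb1 and 0.956 for Ciita, and lower for H2-Oa (0.867), H2-DMb2 (0.823) and H2-Ob (0.731). The 5 other genes with the highest values were Wdfy4 (0.906), Fgd2 (0.894), Gm2a (0.883), Dapp1 (0.876) and Napsa (0.865), of which Wdfy4 and Napsa are also markers used to name cDC1-like and cDC2-like cells. Classes of a library share its depth and its background RNA, so these values describe likeness only.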

How the data were processed

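Liver NPCs of 1 normal and 1 fibrotic mouse were profiled by 10x 3′ single-cell RNA-seq, 1 library each. The authors deposited UMI counts per gene and cell, not normalized, made with Cell Ranger 3.0.1 on mm10 per the submitters' processing notes. Cells with at least 200 genes and at most 10% mitochondrial UMIs were kept (659 and 305 cells exceeded the limit). With scanpy 1.11.5 and leidenalg 0.10.2 in Python 3.11.15, each library was clustered without the 10 genes (2000 variable genes, 10 components, 20 neighbours, resolution 0.8), and its main groups were clustered again. A cluster was named where at least 3 markers of 1 of 26 lists were raised and no other list had more of its top 10 genes. In the groups clustered again, a cluster also needed more than 1 such gene, within its group or over the whole library. Otherwise it kept the name of its first-round class where that list led (or tied, in endothelium), or else stayed unnamed. Ties went to the lists of the group clustered again, then to the higher mean fold. Shallow clusters with fewer than 3 such genes stayed unnamed. Mixed clusters were set aside, and doublets were otherwise kept. These rules were settled after clusters had been seen.

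Levels have exact Poisson, ratios exact conditional and shares exact Clopper-Pearson intervals at 95% (scipy 1.17.1), for counting error only. The scripts were tested on simulated data. No test between libraries was made. Named genes are the 10 members, the 29 pathway genes and the 5 genes most like the classical sum, by log2(UMIs per 10000 + 0.1) over classes of at least 50 cells. Other genes that lead or mark a cluster were named after their values had been seen. Gene positions are from GENCODE vM21. RefSeq windows were given for 7 members; H2-Ab1, Cd74 and Ciita were not searched. The members, lists and comparisons were chosen with earlier results of these data known. Some genes and 1 cluster are not reported here.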

Additional observations from a re-analysis of the deposited data

Results flagged for a closer look

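The classical class II ratio of the fibrotic to the normal library lay below 1 in some cell classes and above 1 in others. It was 0.227 in Kupffer-cell-like cells and 0.139 in the Cd207-led unnamed clusters, against 1.20 in cDC2-like and 1.93 in Ly6c-monocyte-like cells. These 4 values are set apart because the ratios lay on opposite sides of 1 under the same contrast. The median cDC2-like cell stood at 253 and 240.0, and the paired Cd207-led and Ly6c-monocyte-like clusters may hold different kinds of cells. With 1 library per condition the difference between classes was not tested.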

How the results depend on the processing

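No paired analysis was possible because each group is 1 library, and no library could be left out. The Kupffer-cell-like ratio stayed below 1 in all alternatives run, at 0.243 with Leiden resolution 1.5, 0.256 with 30 components, 0.253 with the class II genes kept for clustering, 0.379 per cell, 0.194 without the top 1% of cells, 0.0411 with the T/NK level subtracted and 0.165 without cells holding a B-cell or DC marker UMI. The conventional DC ratio was 1.14 and 0.941 at resolutions 0.4 and 1.5, 0.957 with 30 components, 0.985 with the class II genes kept, 0.956 without the top 5% of Scrublet doublet scores, 0.811 per cell and 0.980 without cells holding a UMI of Mpo, Elane or Prtn3, so its side of 1 was not fixed. The B-cell-like ratio was 0.844 with all deposited cells, 0.844 at resolution 0.4, 0.783 with 30 components, 0.781 per cell, 0.878 without the top 1% and 0.891 with the T/NK level subtracted, and it crossed 1 at resolution 1.5 (1.001). The sinusoidal ratio was 1.15 with the class II genes kept, 1.59 per cell, 1.12 without the top 1% and 1.33 without cells holding a marker UMI of class II rich types, which left 13 fibrotic cells. The sinusoidal level over T/NK in the normal library was 0.443 with 30 components, 0.662 without top doublet scores, 0.883 per cell, 0.487 without the top 1%, 0.510 without marker-UMI cells and, reversed, 1.70 over hepatocyte-like cells. In the fibrotic library it was 0.370 with all cells, 0.394 with 30 components, 0.482 with the class II genes kept, 0.958 per cell, 0.394 without marker-UMI cells and 0.404 over hepatocyte-like cells. For these values over T/NK, the top 1% and the marker-UMI cells were left out on the sinusoidal side only, which can lower the value by itself. B-cell-like cells held 12.8% of normal classical UMIs with all cells, 10.8% with 30 components and 11.2% without top doublet scores, and of fibrotic ones 9.08% with all cells, 8.93% and 7.13% at resolutions 0.4 and 1.5, 7.55% with the class II genes kept, 9.14% without top doublet scores and 9.46% with unnamed B-led clusters counted. The cause of these shifts was not tested. Per cell or with the T/NK level subtracted, which change the scale itself, each of the 41 class levels moved beyond its counting interval. Of 323 class levels under the other alternatives, 297 stayed within 1.5 times; Ly6c-monocyte-like cells of the normal library did not, at 20.1 to 22.0 under 4 clusterings, nor did those of the fibrotic library with 30 components (42.4) or with the class II genes kept (39.4), nor patrolling-monocyte-like cells (4.32 with all cells, 7.54 with 30 components and 7.65 without the top 1%). Nor did hepatocyte-like cells (normal 2.43 and 5.57 at resolution 1.5 and with 30 components, fibrotic 2.98 and 2.50 with 30 components and without the top 1%), normal erythroid cells (5.28 at resolution 0.4) or fibrotic cholangiocyte-like cells (1.73 and 2.69 without top doublet scores or the top 1%). With 30 components normal central vein and fibrotic portal endothelium stood at 11.2 and 6.31. Without haemoglobin, immunoglobulin, mitochondrial and ribosomal protein genes normal plasma-cell-like and erythroid cells stood at 11.1 and 8.04. Normal neutrophil-like cells also moved (6.19 to 28.0), as did stellate-cell-like cells of both libraries (2.01 and 4.65). Subtracting the T/NK level gave no value for the endothelium, which lay below it. Of the alternatives, 5 were chosen after seeing the data.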

Other observations

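Hepatic stellate-cell-like cells, the main source of scar-forming cells, held 3.11 and 7.15 classical UMIs per 10000 in the normal and fibrotic library, a ratio of 2.29 (2.09 to 2.53), with T/NK-like cells at 4.07 and 7.02. In the fibrotic library 15 of 401 of these cells (3.74%) held at least as many classical UMIs as all the others together. Among normal neutrophil-like cells 3 of 190 did so, and the level there was 11.9, against 6.44 in the fibrotic library. The normal neutrophil-like level was 6.19 without the top 1% of cells and 28.0 at Leiden resolution 1.5, and the stellate-cell-like levels were 2.01 and 4.65 without the top 5% of doublet scores.

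Cells set apart by cell cycle genes held 14.9% and 7.27% of all classical UMIs. Their clusters ranged from 2.15 to 139 classical UMIs per 10000 in the normal and from 1.95 to 43.4 in the fibrotic library, so this class pools cells of very different class II level.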
